A study of Rattus norvegicus with 40 samples.

Results

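The TCDD by line interaction asks whether a hepatic mRNA responds to TCDD by a different amount in LnC rats than in LnA rats. It was measured as the LnC response minus the LnA response, each response being the mean log2 signal after TCDD minus the mean after corn oil. The comparison used the 16 Affymetrix RAE230A arrays of both lines, chosen by their sample titles, out of 40 arrays in the series. The 4 groups held 4 arrays each, 1 rat per array: LnC rats given TCDD, LnC rats given corn oil, LnA rats given TCDD and LnA rats given corn oil. All were males of 10 to 12 weeks, and liver was taken 19 h after a single gavage of corn oil with or without 100 µg/kg TCDD. LnC and LnA were bred from crosses of Long-Evans (L-E) and Han/Wistar (H/W) rats. LnC is sensitive to TCDD lethality and carries the wild-type aryl hydrocarbon receptor (AHR), whereas LnA is resistant and carries the H/W receptor, which lacks part of its transactivation domain. The lines also differ at other loci taken from their parents, so that line and receptor genotype cannot be told apart here. The 4 rats of a group shared a cage. Cage therefore cannot be told apart from treatment, from line or from their interaction. A further 16 arrays, of parental rats (L-E and H/W) given the same treatments and killed at the same time, served as a separate comparison.

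TCDD is a persistent ligand of the AHR, a cytoplasmic receptor held by chaperones. On ligand binding the AHR moves to the nucleus, pairs with ARNT and binds response elements that carry the core GCGTG, from which it induces genes of xenobiotic metabolism such as Cyp1a1. In sensitive rats the outcome is wasting, liver injury and death, and an intact AHR transactivation domain separates sensitive from resistant rats.

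In the liver, 8 genes responded differently in LnC and LnA at an adjusted p under 0.01. These were 0.0768% of the 10411 genes tested, and 4 differences were positive and 4 negative. Sebox, Cyfip2 and Vxn rose with TCDD in LnC and did not pass the test in LnA, and Lox fell in LnA from a level that LnC did not have. Slc17a1 and Gsta3 rose in LnA and did not pass in LnC. Litaf fell in LnC, and C20h6orf136 fell in LnC and rose in LnA. At an adjusted p under 0.05 the number was 14 (0.134%), the others being Pcp4l1, Fam8a1 and Tbce with positive differences and Slc25a15, Mtus1 and Slc13a2 with negative ones. At an unadjusted p under 0.05 there were 495 genes (4.75%), 234 positive and 261 negative. The limma model with Benjamini-Hochberg adjustment over all genes gave these and all adjusted p-values that follow. The count was sensitive to single arrays: it fell to 1, Sebox, without any 1 of 6 of the arrays (LnC corn oil replicates 1 and 2, LnA TCDD replicate 3, and LnA corn oil replicates 2, 3 and 4), while all 8 interactions kept their sign. It also fell with the replicate number as a block, to 1 gene with the number shared by both lines (Sebox, adjusted p = 0.00239) and to 0 by limma with the number used in LnA alone (549 at an unadjusted p under 0.05). In the first of these fits the other 7 genes had an adjusted p between 0.01 and 0.0308, and in the second, added after the data were seen, Sebox and Gsta3 had 0.0103 and the other 6 between 0.0168 and 0.0314. No source says that a number marks rats that belong together. The deviations of same-numbered arrays correlated at 0.11 to 0.17 between the LnA groups and at -0.26 to 0.10 between the LnC groups. The median standard error of an interaction was 0.12 log2 units, and the median interaction over all genes was 0.02.

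The arrays were uniform within groups: each array correlated with its 3 group mates at a mean r between 0.993 and 0.996, and array medians lay between 3.58 and 3.76 log2 units. All 16 were scanned on 1 day and came from 1 chip lot. Per the scanner files, the 8 corn oil arrays were washed on fluidics station 1, while TCDD replicates 1 to 3 of each line went through station 2 and TCDD replicate 4 of each line through station 1. The station is thus nearly inseparable from treatment within a line, but it is balanced between the lines. With the station as a block, 10 genes were called for the interaction, including all 8 above. Because of the balance this block cannot change the size of an interaction. These calls therefore do not test a station effect that differs between the lines. Within station 1 each line keeps 1 TCDD array, and those estimates are given gene by gene below. The hepatocyte markers summed to between 280000 and 309000 linear units in LnC TCDD arrays, 305000 to 314000 in LnC corn oil arrays, 300000 to 322000 in LnA TCDD arrays and 318000 to 324000 in LnA corn oil arrays, and 0 of the 11 markers were under the array medians in any group.

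The induction that depended on line was clearest for Sebox, Cyfip2 and Vxn. Sebox encodes a homeobox transcription factor. It had a log2 signal of 5.6, 6.09, 6.25 and 6.32 in LnC TCDD rats against 3.92, 3.97, 3.99 and 4.04 in LnC corn oil rats. In LnA the values were 4.07, 4.35, 4.34 and 4.16 with TCDD against 3.99, 3.96, 3.92 and 3.98 with corn oil. The groups did not overlap in either line, as for 9.89% of genes in LnC and 8.91% in LnA, but the gap was far wider in LnC. The LnC response of Sebox was 2.09 ± 0.12 (SE, adjusted p = 3.16e-07) and the LnA response was 0.27 ± 0.12 (adjusted p = 0.339), which gave an interaction of 1.82 ± 0.17 (95% interval 1.45 to 2.19, adjusted p = 0.000676). Of the 8 genes, this one alone was called with each of the 16 arrays left out in turn.

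Cyfip2 encodes a subunit of the WAVE complex, which controls actin branching. It had log2 signals of 5.89, 4.75, 5.36 and 5.16 in LnC TCDD rats against 3.07, 3.11, 3.12 and 3.11 in LnC corn oil rats. In LnA rats they were 3.16, 3.11, 3.13 and 3.50 with TCDD against 3.12, 3.10, 3.09 and 3.15 with corn oil. The 4 LnC TCDD arrays stood far above the others. LnA TCDD replicate 4, at 3.50, was above the remaining LnA arrays, among which the groups overlapped. The interaction of Cyfip2 was 2.07 ± 0.24 (95% interval 1.56 to 2.59, adjusted p = 0.00404), from a response of 2.19 in LnC and 0.11 in LnA. The corn oil values lay under the median of every array, at the low end of the scale, so the size of the LnC response depends on that floor.

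Vxn, which encodes vexin, a protein known from neural differentiation in frog embryos, had log2 signals of 6.56, 5.99, 6.53 and 5.56 in LnC TCDD rats against 3.20, 3.27, 3.32 and 3.30 in LnC corn oil rats. In LnA rats the values were 4.21, 3.90, 3.35 and 3.28 with TCDD and 3.29, 3.24, 3.24 and 3.33 with corn oil. In LnA, 3 TCDD arrays were above all corn oil arrays, one of them only just, and 1 was among them. The interaction was 2.48 ± 0.31 (95% interval 1.80 to 3.15, adjusted p = 0.00441). As for Cyfip2, the corn oil signals were under every array median. Within fluidics station 1, an alternative added after the data were seen in which each line keeps 1 TCDD array, the interaction was 2.15 for Sebox, 1.68 for Cyfip2 and 2.28 for Vxn, each with an adjusted p of 3.91e-05 that takes the lone arrays to vary like the others.

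**Figure D1:**
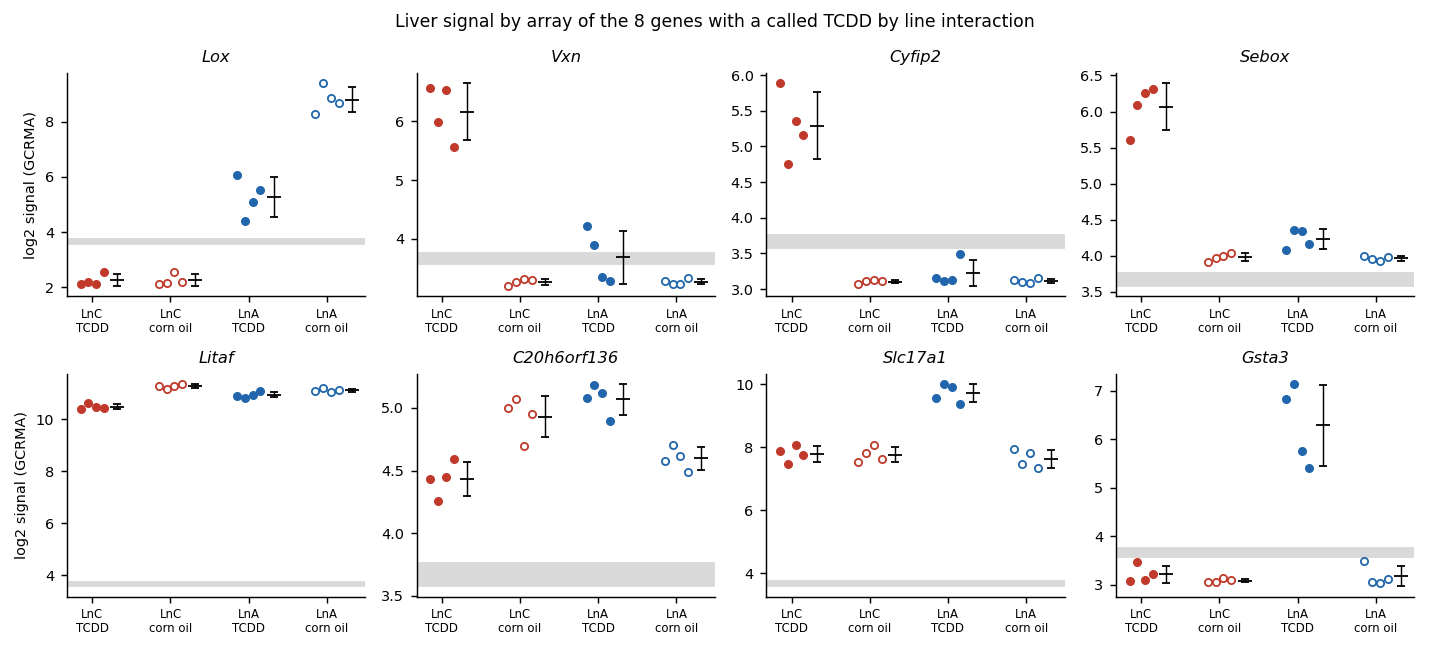
Log2 signal of each array (points) for the 8 genes with an interaction at an adjusted p under 0.01, with filled points for TCDD, open points for corn oil, and the mean and SD of the 4 arrays beside them. The grey band spans the array medians, 3.58 to 3.76; the LnC TCDD arrays of Sebox (5.6 to 6.32) and the LnA TCDD arrays of Slc17a1 (9.38 to 10.01) stand apart from the other 3 groups.

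The promoters of Cyfip2 and Sebox are shown because both rose in LnC and both lie on chromosome 10. They are the RefSeq windows of assembly GRCr8, 250 bases before to 50 after the annotated start, at chr10:31242391-31242690 (minus strand) and chr10:63897015-63897314 (plus strand). Each is written 5′ to 3′ on the gene's strand, and capitals would mark the core GCGTG on either strand (also CACGC), which neither holds.
Cyfip2: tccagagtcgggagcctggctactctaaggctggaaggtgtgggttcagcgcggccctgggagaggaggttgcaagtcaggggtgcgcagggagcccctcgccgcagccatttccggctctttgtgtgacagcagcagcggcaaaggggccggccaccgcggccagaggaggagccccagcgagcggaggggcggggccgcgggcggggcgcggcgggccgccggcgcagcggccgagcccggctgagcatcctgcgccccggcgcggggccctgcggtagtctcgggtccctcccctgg
Sebox: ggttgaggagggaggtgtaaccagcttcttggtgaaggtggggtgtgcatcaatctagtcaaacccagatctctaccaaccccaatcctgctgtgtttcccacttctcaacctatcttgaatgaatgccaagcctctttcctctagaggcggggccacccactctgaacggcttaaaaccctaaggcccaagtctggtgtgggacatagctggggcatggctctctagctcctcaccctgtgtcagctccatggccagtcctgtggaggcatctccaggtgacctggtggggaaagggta
The Cyfip2 window had a GC content of 75% and 32 CG pairs, and the Sebox window a GC content of 55% and 2 CG pairs. The core occurred in 29.7% of all 33469 promoters of the table and in 46% of the 9466 promoters that belong to genes tested. Among the 14 genes at an adjusted p under 0.05, 9 had a promoter in the table and 1 of these held the core. That promoter belongs to Slc25a15 and is shown further on.

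Lox encodes lysyl oxidase, which cross-links collagen and elastin. Its interaction was the largest positive one of the 8, and it came from the LnA rats. Log2 signals were 2.14, 2.19, 2.12 and 2.57 in LnC TCDD rats against 2.12, 2.15, 2.57 and 2.18 in LnC corn oil rats. They were 6.08, 4.39, 5.10 and 5.52 in LnA TCDD rats against 8.30, 9.40, 8.87 and 8.67 in LnA corn oil rats. All LnC arrays were thus at the low end of the scale, and every LnA TCDD array was below every LnA corn oil array. The LnA response was -3.54 ± 0.30 (SE, adjusted p = 1.78e-05) and the interaction 3.53 ± 0.43 (95% interval 2.62 to 4.45, adjusted p = 0.00407). Before any TCDD, Lox was lower in LnC than in LnA by a log2 difference of -6.55 (adjusted p = 1.91e-08), so a fall in LnC could not have been measured. The call was lost in 1 fit of all 8 groups of lines and strains, and within fluidics station 1 (3.6, adjusted p = 0.0357). Another probe set of Lox gave an interaction of 2.34 ± 0.29 (adjusted p = 0.00471 over all probe sets). Stellate and endothelial markers summed to 2140 to 2780 linear units in LnC TCDD, 2240 to 2720 in LnC corn oil, 1910 to 2250 in LnA TCDD and 2210 to 2310 in LnA corn oil arrays. In this whole tissue a change in the number of cells of a type and a change in RNA per cell cannot be told apart, and the part of these cells in the Lox result was not tested.

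Slc17a1, a sodium-phosphate cotransporter gene whose product also carries urate, showed the opposite arrangement. Its log2 signal was 7.89, 7.46, 8.06 and 7.75 in LnC TCDD rats against 7.51, 7.81, 8.06 and 7.63 in LnC corn oil rats. In LnA rats it was 9.55, 10.01, 9.91 and 9.38 with TCDD against 7.92, 7.47, 7.82 and 7.32 with corn oil. All 4 LnA TCDD arrays exceeded every other array of the lines, and the LnC groups overlapped. The LnA response of Slc17a1 was 2.08 ± 0.18 (SE, adjusted p = 1.90e-05), the LnC response 0.04 ± 0.18 (adjusted p = 1.0), and the interaction -2.05 ± 0.26 (95% interval -2.60 to -1.49, adjusted p = 0.00441). Within fluidics station 1 it was -1.75 (adjusted p = 0.139).

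Slc17a3, of the same transporter family, lies beside Slc17a1 on chromosome 17 with no other protein-coding gene between their starts. It gave log2 signals of 8.65, 8.85, 9.48 and 9.28 in LnC TCDD rats against 8.80, 9.55, 9.01 and 8.85 in LnC corn oil rats. In LnA rats they were 9.92, 10.59, 10.51 and 9.74 with TCDD and 8.26, 8.48, 8.20 and 7.01 with corn oil. The interaction was -2.19 ± 0.45 (95% interval -3.15 to -1.23), about as large as that of its neighbour, but with an adjusted p of 0.164 it did not pass the test. The LnA response alone passed (2.20, adjusted p = 0.00126), and the LnC response was 0.01. For Slc17a3 the difference LnC minus LnA was 1.06 in corn oil rats and -1.13 in TCDD rats (adjusted p = 0.17 and 0.103). Slc17a1 had 0.12 and -1.93 (adjusted p = 0.977 and 6.27e-05), so the corn oil groups had a larger part in the Slc17a3 interaction. Both promoters are shown because the response of both neighbours was called in LnA and not in LnC. They are at chr17:41681125-41681424 and chr17:41723060-41723359, on the minus strand of GRCr8, and neither holds the core.
Slc17a1: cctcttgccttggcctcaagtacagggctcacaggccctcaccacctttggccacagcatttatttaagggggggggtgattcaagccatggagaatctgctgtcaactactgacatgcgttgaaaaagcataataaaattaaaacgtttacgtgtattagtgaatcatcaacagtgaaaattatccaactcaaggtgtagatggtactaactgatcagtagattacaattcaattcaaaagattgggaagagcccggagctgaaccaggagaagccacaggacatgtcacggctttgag
Slc17a3: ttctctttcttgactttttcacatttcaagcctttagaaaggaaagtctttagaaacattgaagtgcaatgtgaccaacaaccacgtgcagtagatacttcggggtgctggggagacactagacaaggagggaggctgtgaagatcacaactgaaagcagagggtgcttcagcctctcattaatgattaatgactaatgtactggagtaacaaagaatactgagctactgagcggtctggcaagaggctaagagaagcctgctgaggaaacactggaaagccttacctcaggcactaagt
The GC contents of these windows were 44.3% for Slc17a1 and 44.7% for Slc17a3.

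Gsta3 is a glutathione S-transferase gene of the alpha class, which conjugates reactive compounds with glutathione. The log2 signals were 3.08, 3.46, 3.10 and 3.21 in LnC TCDD rats against 3.05, 3.07, 3.13 and 3.10 in LnC corn oil rats. The LnA rats had 6.83, 7.14, 5.76 and 5.41 with TCDD against 3.49, 3.06, 3.04 and 3.12 with corn oil. Only the LnA TCDD arrays were above the array medians. The interaction of -2.98 ± 0.41 (95% interval -3.87 to -2.09, adjusted p = 0.00773) was the largest negative one of the 8. The alpha-class genes are close in sequence, so which of them the single probe set reads is uncertain. The call was lost with quantile normalization, in 1 fit of all 8 groups of lines and strains, and within fluidics station 1 (-2.11, adjusted p = 0.0155).

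Both of the smaller negative interactions had all groups within about a log2 unit. Litaf encodes a membrane protein of late endosomes, and its log2 signals were 10.38, 10.61, 10.46 and 10.45 in LnC TCDD rats against 11.29, 11.17, 11.28 and 11.37 in LnC corn oil rats. In LnA rats they were 10.91, 10.83, 10.95 and 11.07 with TCDD and 11.09, 11.19, 11.05 and 11.14 with corn oil. The LnC groups were well apart, and the LnA groups overlapped at 1 pair of arrays. The LnC response of Litaf was -0.80 (adjusted p = 3.57e-06), the LnA response -0.18 (adjusted p = 0.143) and the interaction -0.62 ± 0.09 (95% interval -0.81 to -0.44, adjusted p = 0.00773). C20h6orf136, named only by its place, was the 1 gene of the 8 called in both lines. Its log2 signals were 4.43, 4.26, 4.45 and 4.59 in LnC TCDD rats against 5.0, 5.07, 4.70 and 4.95 in LnC corn oil rats. In LnA rats they were 5.08, 5.19, 5.12 and 4.90 with TCDD against 4.58, 4.70, 4.62 and 4.49 with corn oil. The groups did not overlap in either line and lay in opposite order, with a response of -0.50 in LnC (adjusted p = 0.00425) and 0.47 in LnA (adjusted p = 0.00879). Its interaction was -0.97 ± 0.13 (95% interval -1.24 to -0.70, adjusted p = 0.00479), and it was also the 1 gene of the 94 called in both lines that changed in opposite directions. Median centring ended the calls of Litaf and C20h6orf136, and within fluidics station 1 their interactions were -0.78 (adjusted p = 0.0357) and -0.64 (adjusted p = 0.308).

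The 6 genes between an adjusted p of 0.01 and 0.05 did not pass the threshold used here. Pcp4l1 had log2 signals of 7.56, 7.02, 7.60 and 7.66 in LnC TCDD rats and 3.31, 3.39, 3.6 and 3.44 in LnC corn oil rats, against 4.28, 3.76, 4.50 and 5.89 in LnA TCDD rats and 3.47, 3.34, 3.35 and 3.6 in LnA corn oil rats. Its interaction was 2.86 ± 0.46 (adjusted p = 0.0308). With single arrays left out, its adjusted p ran from 6.75e-05, without LnA TCDD replicate 4, the highest of its group, to 0.0867. Under the other alternatives it ran from 0.00391 to 0.451. Fam8a1, whose human product belongs to an endoplasmic reticulum degradation complex, rose in both lines, by 2.51 in LnC and 1.24 in LnA, and its interaction was 1.26 (adjusted p = 0.0405). Tbce, a tubulin folding cofactor, had an interaction of 0.56 (adjusted p = 0.0413). Mtus1, a microtubule-associated protein gene, had one of -0.93 (adjusted p = 0.0413), whereas its other probe set gave -0.26 (adjusted p = 0.972).

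Slc25a15 encodes the mitochondrial ornithine carrier of the urea cycle. It had 10.13, 10.12, 9.95 and 10.19 log2 units in LnC TCDD rats against 11.18, 11.10, 11.05 and 10.93 in LnC corn oil rats, and 10.74, 10.66, 10.66 and 11.10 in LnA TCDD rats against 10.76, 10.99, 11.03 and 10.87 in LnA corn oil rats. It fell in LnC by 0.97 log2 units (adjusted p = 4.08e-05), the LnA groups overlapped, and the interaction was -0.85 ± 0.14 (adjusted p = 0.0308). Its promoter, at chr16:76336620-76336919 on the plus strand of GRCr8, is shown because it alone of the 9 held the core, here in capitals.
Slc25a15: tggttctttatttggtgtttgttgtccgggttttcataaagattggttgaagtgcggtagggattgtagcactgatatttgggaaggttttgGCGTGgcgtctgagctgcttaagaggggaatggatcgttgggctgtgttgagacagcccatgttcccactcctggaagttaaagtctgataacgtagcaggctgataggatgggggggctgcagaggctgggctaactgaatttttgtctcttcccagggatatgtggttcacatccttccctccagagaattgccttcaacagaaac
A match of these letters is a description of the window and not a binding site.

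Slc13a2 encodes a sodium-dependent carrier of citrate and other dicarboxylates, and it lies near Sebox on chromosome 10, with 3 protein-coding genes (Slc46a1, Sarm1 and Vtn) between their starts. Its log2 signals were 1.81, 1.83, 1.82 and 1.90 in LnC TCDD rats against 3.58, 4.69, 3.96 and 2.98 in LnC corn oil rats. In LnA rats they were 1.85, 1.81, 1.80 and 1.83 with TCDD and 1.83, 1.82, 1.81 and 1.86 with corn oil. Only the LnC corn oil arrays rose from the floor of the scale, and the interaction of -1.95 ± 0.34 (adjusted p = 0.0467) therefore compares a fall in LnC with a line where no fall could have been measured. Lox and Slc13a2 were the only genes of the 14 that differed between the lines in corn oil rats at an adjusted p under 0.01, a difference called for 51 genes (0.49%). In TCDD rats 86 genes (0.826%) differed. By the GRCr8 gene table, 4 of the 14 genes (Cyfip2, Litaf, Sebox and Slc13a2) lay on chromosome 10, which holds 8.78% of the genes tested that could be placed, and 3 (Fam8a1, Slc17a1 and Tbce) on chromosome 17, with 2.97%.

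**Figure D2:**
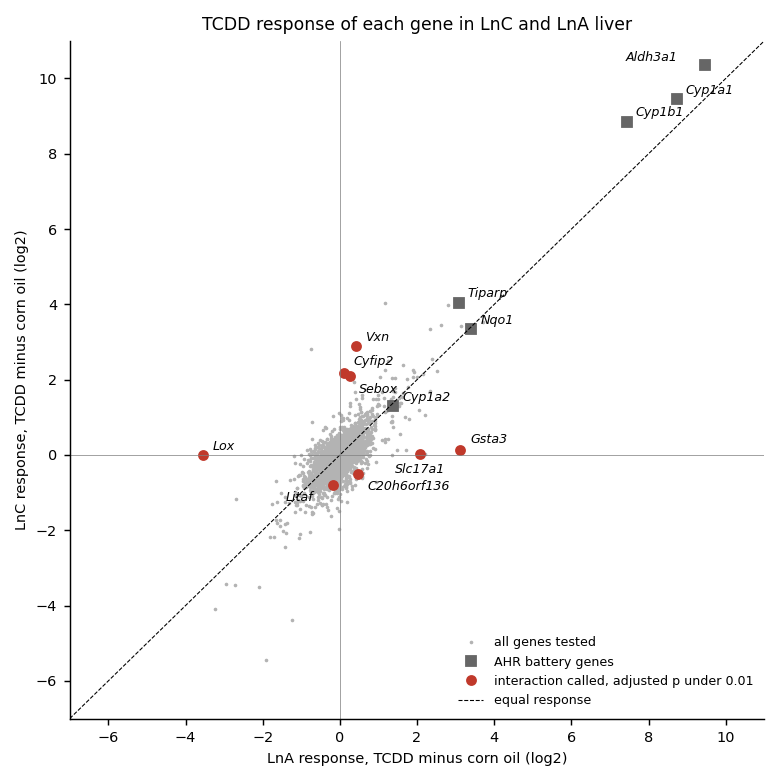
TCDD response (log2, TCDD minus corn oil) of the 10411 genes in LnC (vertical axis) against LnA (horizontal axis), with the 8 genes of the called interaction as red circles and 6 AHR battery genes as grey squares. The dashed line marks equal responses; Nqo1 and Cyp1a2 lie on it within 0.08, Cyp1b1 lies 1.41 above it and Aldh3a1 0.91, and Slc17a1 and Gsta3 lie far to its right at an LnC response of 0.04 and 0.13.

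Most responses were shared in direction. TCDD changed 279 genes in LnC (2.68%; 162 rose, 1.56%, and 117 fell, 1.12%) and 154 in LnA (1.48%; 95 rose, 0.912%, and 59 fell, 0.567%). With the fluidics station as a block these counts were 82 and 49. Of the genes called, 185 passed in LnC alone, 60 in LnA alone and 94 in both. Of the 185, 4 had a called interaction, as had 3 of the 60, against 0.0768% of all genes. At an unadjusted p under 0.05 the interaction passed for 78 of the 185 (42.2%) and for 33 of the 60 (55.0%), against 4.75% of all genes. These sets were chosen by responses that enter the interaction, so nothing is read from those shares. For the genes without a called interaction, a response called in 1 line alone did not come with a called difference between the lines. Of the 185 genes, 181 (97.8%) had the same sign in LnA, and all 60 called in LnA alone had the same sign in LnC, against 58.2% of all genes. The fluidics stations were split alike in both lines, so a shared TCDD response and a shared station effect cannot be told apart in these signs.

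The AHR battery list, here genes that the receptor induces and also Inmt, responded strongly in both lines. A called interaction was found for 0 of its 8 measured members (limma, with 2 at an unadjusted p under 0.05). Of the 8, 7 rose and 1 fell in each line. The member that fell was Inmt, an indolethylamine methyltransferase gene, which was picked out after its values were seen (-4.09 in LnC and -3.25 in LnA). With the fluidics station as a block Inmt was called in neither line (adjusted p = 0.0189 in LnC and 0.10 in LnA) and Nfe2l2 in LnC alone (0.00397, against 0.0216 in LnA), while the other 6 were called in both. Aldh3a1, an aldehyde dehydrogenase gene, had log2 signals of 13.37, 13.60, 13.72 and 13.50 in LnC TCDD rats against 2.97, 3.28, 3.35 and 3.15 in LnC corn oil rats. In LnA rats it had 12.69, 12.26, 12.02 and 12.13 with TCDD and 2.72, 2.63, 2.62 and 3.32 with corn oil. The TCDD arrays of the lines did not overlap, but the interaction of 0.91 ± 0.24 had an adjusted p of 0.584.

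Cyp1b1, a cytochrome P450 of the family that oxidizes aromatic hydrocarbons and estrogens, gave log2 signals of 12.98, 13.02, 12.09 and 11.81 in LnC TCDD rats against 3.40, 3.83, 3.83 and 3.45 in LnC corn oil rats. In LnA rats they were 11.56, 10.47, 10.60 and 10.88 with TCDD and 3.44, 3.43, 3.35 and 3.54 with corn oil. The interaction was 1.41 ± 0.39 (adjusted p = 0.634). For both Aldh3a1 and Cyp1b1 the LnC TCDD arrays were thus above the LnA TCDD arrays. By limma this difference between TCDD rats was called, at 1.27 for Aldh3a1 (adjusted p = 0.000847) and 1.60 for Cyp1b1 (adjusted p = 0.00749). The interaction was called for neither gene. Their corn oil signals lay at or under the array medians or just above them, so the sizes of these responses depend on the floor of the scale. Cyp1a1, the best known AHR target, reached 14.49, 14.69, 14.52 and 14.34 in LnC TCDD rats and 14.41, 14.43, 14.57 and 14.27 in LnA TCDD rats, near the top of the scale. Its corn oil signals ranged between 3.61 and 6.58 in LnC and between 2.38 and 7.81 in LnA, so that its interaction of 0.73 had a 95% interval of -2.21 to 3.66.

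Tiparp, a mono-ADP-ribosyltransferase gene whose product represses the AHR, had an interaction of 0.97 (95% interval -0.28 to 2.22), and Nfe2l2, which encodes NRF2, the regulator of antioxidant genes, one of 0.33 (95% interval -0.24 to 0.90). Nqo1, a quinone reductase gene induced by both the AHR and NRF2, rose by 3.34 in LnC and 3.40 in LnA. Cyp1a2, the other P450 of the 1A subfamily, rose by 1.30 in LnC and 1.38 in LnA. The intervals of the interaction were -1.11 to 1.0 for Nqo1 and -0.37 to 0.21 for Cyp1a2. The signals of Cyp1a2 were 15.50, 15.41, 15.45 and 15.38 in LnC TCDD rats against 14.06, 13.97, 14.26 and 14.26 in LnC corn oil rats, and 15.55, 15.44, 15.52 and 15.37 in LnA TCDD rats against 14.18, 13.76, 14.20 and 14.22 in LnA corn oil rats. Its mean in LnC TCDD rats was among the 5 highest of all genes there. Near the top of the scale a difference can be compressed, so the narrow interval of Cyp1a2 does not show that the lines responded alike. Ahr itself read 3.06 to 3.18 in LnC TCDD, 3.05 to 3.14 in LnC corn oil, 3.04 to 3.10 in LnA TCDD and 3.07 to 3.21 in LnA corn oil arrays. These are under every array median, so this probe set gives no measure of a difference in Ahr. Another probe set of Ahr had means of 3.07 with TCDD and 2.15 with corn oil in LnC, and 3.10 and 2.47 in LnA. These means were also under every array median, and its interaction was 0.29 (adjusted p = 0.972 over all probe sets).

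**Figure D3:**
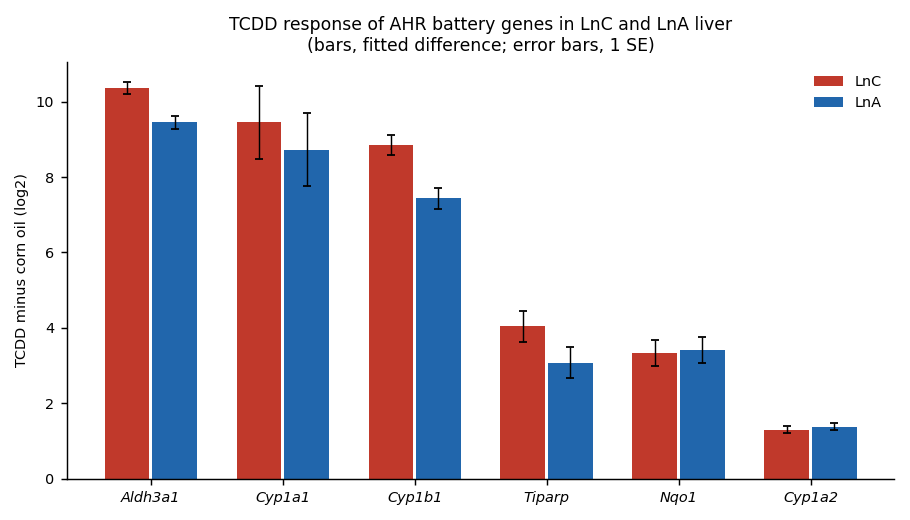
TCDD response (log2, TCDD minus corn oil) of 6 AHR battery genes in LnC (red, left bar) and LnA (blue, right bar); bars are the fitted differences and error bars 1 SE. The LnC bar is higher for Aldh3a1 (10.36 against 9.45) and Cyp1b1 (8.85 against 7.43). The bars of Nqo1 (3.34 against 3.40) and Cyp1a2 (1.30 against 1.38) differ little, with the TCDD signals of Cyp1a2 near the top of the scale.

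Among 22 gene lists of liver pathways, called members of the interaction were found in 1, the glutathione S-transferases, through Gsta3 alone (1 of 18). The median interaction over these 18 was -0.08, against 0.02 over all genes. The list counts that follow stand beside 2.25% of all genes positive and 2.51% negative at an unadjusted p under 0.05, and no list was tested. In amino acid catabolism and the urea cycle, 3 of 48 members were positive and 4 negative at an unadjusted p under 0.05, with Slc25a15 first. Others of that list were Haao, an enzyme of tryptophan breakdown, with an interaction of 0.43 (adjusted p = 0.839), and Gls2, the liver glutaminase, which fell by 1.32 in LnC and 0.88 in LnA and had one of -0.44 (adjusted p = 0.889). In cholesterol synthesis and uptake, 3 of 21 were negative and 0 positive at an unadjusted p under 0.05. These were Scap, the escort of the SREBP factors, at -0.80, Cyp51 at -0.42 and Acat2 at -0.82, and the list's median was -0.25. Fatty acid synthesis had 1 positive and 2 negative of 28 at an unadjusted p under 0.05, and a median of -0.16. The negative members were Acss2, an acetyl-CoA synthetase, at -0.92 and Fads2, a desaturase, at -1.07 (adjusted p = 0.898 and 0.981). In the parental strains the signs were opposite, with 0.19 for Acss2, 1.17 for Fads2 and a list median of 0.17. The oxidative phosphorylation list had 5 of 57 positive and 0 negative at an unadjusted p under 0.05, among them the complex I subunit Ndufb5 at 0.31 and the complex II subunit Sdhd at 0.35, with a median of 0.05. In fatty acid oxidation and ketogenesis the median was 0.10, and Bdh1, a ketone body enzyme, had 0.35.

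Bile acid genes had 0 of 28 members past an unadjusted p of 0.05 in either direction by limma. Cyp7a1, the rate-limiting enzyme of bile acid synthesis, had an LnC response of -5.43 and an LnA response of -1.91, with an interaction of -3.53 whose 95% interval ran from -7.59 to 0.54. Gadd45g, a stress-induced growth arrest gene, had the largest positive interaction among the genes named, 3.54 (95% interval 1.47 to 5.61), but an adjusted p of 0.634. Its log2 signals were 6.59, 7.84, 8.21 and 8.52 in LnC TCDD rats against 4.70, 4.30, 5.13 and 5.8 in LnC corn oil rats, and 5.99, 6.78, 7.16 and 7.92 in LnA TCDD rats against 5.46, 8.59, 7.98 and 8.78 in LnA corn oil rats. The LnC groups were apart and the LnA groups overlapped. The iron hormone Hamp had an interaction of -3.15 (95% interval -7.34 to 1.04). The intervals of Cyp7a1 and Hamp are too wide for their sizes to be read.

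Among transcription factors, Nr1i3, the constitutive androstane receptor, had an interaction of 1.27 (adjusted p = 0.843) and rose in LnC by 1.67 (adjusted p = 0.00468). Nfic, a nuclear factor I gene, had -0.69 (adjusted p = 0.459), and the immediate early gene Ier3 had 1.02 (adjusted p = 0.903). In the parental strains Nr1i3 had -0.87 and Ier3 -0.73, opposite in sign to the lines, and Nfic had -0.03. The cytochrome P450 families 2 to 4 held 2 positive and 1 negative of 37 at an unadjusted p under 0.05, with Cyp2d4 at 0.91 and Cyp2b3 at -0.51. Cyp2d4 had -1.56 in the strains, again opposite in sign, and Cyp2b3 had -0.04. The coagulation gene Cpb2, a carboxypeptidase that slows clot lysis, had 0.48 (adjusted p = 0.634). In the strains Cpb2 had 0.49, of the same sign, with an adjusted p of 0.0422, under 0.05 but not called. Its response was 0.47 in LnC and 0.62 in L-E, against -0.011 in LnA and 0.13 in H/W. In the strains, response and fluidics station are nearly inseparable, as described below. The study's list of genes that it found altered in both L-E and LnC rats and in neither H/W nor LnA rats held 39 measured members, of which 7 were positive and 6 negative at an unadjusted p under 0.05 and 0 were called by limma. That list was chosen on these samples, so its count is not independent evidence of a difference between the lines. Its lowest p-values were those of Tc2n (1.02), Bbs2 (0.93), Hsd11b1 (-0.55), the enzyme that regenerates active glucocorticoid, and Nudt4 (-0.38). In the deposited values the H/W response was called for Tc2n (1.77, adjusted p = 0.000278) and Hsd11b1 (-0.71, adjusted p = 0.0077). It was not called for Bbs2 or Nudt4. In the circadian list 0 of 16 genes, and in the AHR complex 1 of 13, had an unadjusted p under 0.05 by limma, the gene being the coactivator Ep300 at 0.12.

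Macrophage and immune markers differed between the lines. The 15 markers summed to 2780 to 4150 linear units in LnC TCDD, 3950 to 4640 in LnC corn oil, 2100 to 2410 in LnA TCDD and 2120 to 2320 in LnA corn oil arrays, and 3 of the 15 were under every array median. Without Cd14, a lipopolysaccharide co-receptor of macrophages, the corn oil sums were 2670 to 3320 in LnC and 1830 to 2030 in LnA. Cd14 was higher in LnC than in LnA corn oil rats by 2.21 (adjusted p = 1.04e-06) and had an interaction of -0.65 (adjusted p = 0.823). Of the 15 markers 2 were negative at an unadjusted p under 0.05 for the interaction, the other being Cd68 at -0.46. Red cell, pancreas and fat markers summed to 2840 to 4870 linear units in LnC TCDD, 1770 to 4920 in LnC corn oil, 5240 to 8460 in LnA TCDD and 3400 to 7040 in LnA corn oil arrays, with 7 of the 11 under every array median, and the TCDD arrays of the lines did not overlap. The part of these cells in the interaction of any gene was not tested.

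The same contrast in the parental strains, the L-E response minus the H/W response, used other rats. There 4 genes were called (0.0384%), 9 at an adjusted p under 0.05 (0.0864%) and 9.7% of genes at an unadjusted p under 0.05. The TCDD response itself was called for 4.27% of genes in L-E and 1.18% in H/W. Slc17a1 was called in both comparisons, with a parental interaction of -1.32 ± 0.15 (SE, 95% interval -1.64 to -1.0, adjusted p = 0.00296). Its log2 signals were 7.88, 8.15, 7.83 and 8.04 in L-E TCDD rats against 7.81, 7.64, 7.69 and 8.08 in L-E corn oil rats, and 9.91, 9.67, 9.72 and 9.53 in H/W TCDD rats against 8.19, 8.28, 8.32 and 8.09 in H/W corn oil rats. The sensitive L-E groups overlapped as the LnC groups did, and the H/W groups were apart as the LnA groups were. The other 3 called in the strains, picked out for that call, were Ackr3, a chemokine-scavenging receptor gene, Cdh2, which encodes N-cadherin, and Ttpa, which encodes the vitamin E transfer protein. Ackr3 had 2.24 in the strains and 1.55 in the lines (adjusted p = 0.719 in the lines), whereas Cdh2 had -0.90 and Ttpa -0.87 in the strains against 0.04 and 0.13 in the lines.

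Of the 8 genes called in the lines, 6 had a parental interaction of the same sign, and of the 14 at an adjusted p under 0.05, 11 did, against 61.8% of all genes. Without a block Slc17a1 was the only one of the 14 to pass an adjusted p of 0.05 in the strains, and 5 had the same sign at an unadjusted p under 0.05. Cyfip2 had a parental interaction of 1.75 (95% interval 0.87 to 2.63, adjusted p = 0.169), with log2 signals of 4.80, 5.15, 5.66 and 5.63 in L-E TCDD rats against 2.97, 3.02, 3.08 and 2.77 in L-E corn oil rats. In H/W rats they were 3.83, 4.67, 3.08 and 3.10 with TCDD against 3.07, 3.11, 2.99 and 3.10 with corn oil, so that 2 H/W rats were above and 2 among the corn oil rats. Vxn had a parental interaction of 1.46 (95% interval 0.26 to 2.65) and rose in L-E by 3.09. Mtus1 had -0.69 (95% interval -0.99 to -0.39), Slc25a15 -0.37 (95% interval -0.65 to -0.09) and Slc17a3 -1.03 (95% interval -1.43 to -0.63, adjusted p = 0.0768). Of the battery, Aldh3a1 had 1.31 (95% interval 0.55 to 2.07) and Cyp1b1 1.61 (95% interval 0.67 to 2.55), each with an adjusted p of 0.259. Nqo1 had -3.18 (95% interval -4.67 to -1.69, adjusted p = 0.127), with mean corn oil signals of 9.42 in L-E and 5.16 in H/W rats. Nfe2l2 had 0.71 (adjusted p = 0.485), Cyp1a1 0.09, Cyp1a2 -0.03 and Tiparp -0.05.

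The difference between a line interaction and a strain interaction was not tested for any gene, and the values of the rest are given side by side with those above. Sebox had a parental interaction of -0.34 (95% interval -0.85 to 0.16), and its TCDD signals were 4.04 to 4.93 in L-E and 4.72 to 5.27 in H/W, so it rose in H/W (1.01, adjusted p = 0.00400) and was not confined to LnC. Slc13a2 had 1.25 (95% interval 0.45 to 2.04), opposite in sign to the lines. It was at the floor in L-E corn oil rats (1.71, 1.78, 1.80 and 1.77) and above it in H/W corn oil rats (2.37, 4.02, 3.58 and 2.93). Lox had -2.44 with an interval of -5.59 to 0.71, and its H/W corn oil signals of 5.22, 2.24, 7.64 and 2.16 spanned most of its range. Litaf had -0.02 (95% interval -0.37 to 0.33). C20h6orf136 had -0.76 without a block (95% interval -1.95 to 0.43, adjusted p = 0.576). Pcp4l1 had 0.07 (95% interval -2.08 to 2.22), Fam8a1 0.32 (95% interval -0.03 to 0.67) and Tbce 0.19 (95% interval -0.10 to 0.48). Gsta3 had a parental interaction of the same sign as in the lines, with a 95% interval of -3.49 to 1.49, and was above the array medians in 1 of 4 H/W TCDD rats (7.89, against 3.02, 2.94 and 3.08). In the strains, the 4 L-E TCDD arrays were all washed on fluidics station 2 and the 4 H/W TCDD arrays on station 1, and the arrays were scanned on 3 days, so that strain response and station are nearly inseparable there. With scan day as a block the parental interaction of Slc17a1 stayed at -1.32 but had an adjusted p of 0.0121, and with station as a block it was -1.49 (adjusted p = 0.00847). That station block also gave Mtus1 -1.19 (adjusted p = 0.00569), C20h6orf136 -2.70 (adjusted p = 0.0229) and Lox -7.97 (adjusted p = 0.0139), the last opposite in sign to the lines. In the strains 1 H/W corn oil array alone separates station from group, so these estimates rest on it.

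**Figure D4:**
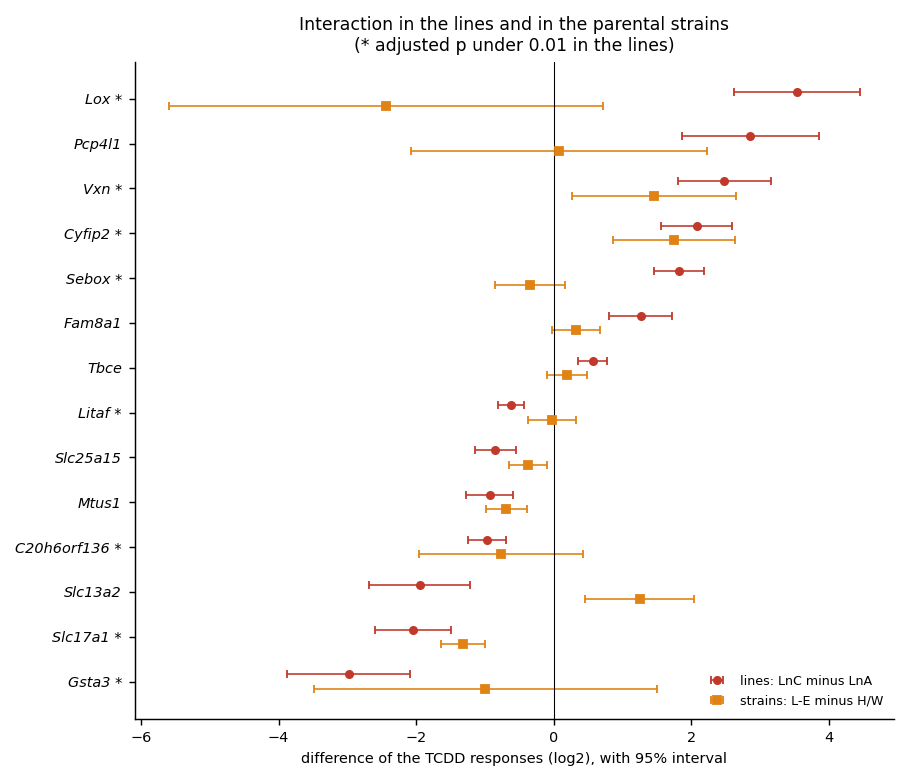
Interaction (log2, with 95% interval) of the 14 genes at an adjusted p under 0.05 in the lines, LnC minus LnA (red circles), and in the parental strains, L-E minus H/W (orange squares). Slc17a1 (-2.05 and -1.32) and Cyfip2 (2.07 and 1.75) lie on the same side of 0 in both, while Lox, Sebox and Slc13a2 lie on opposite sides.

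**Figure D5:**
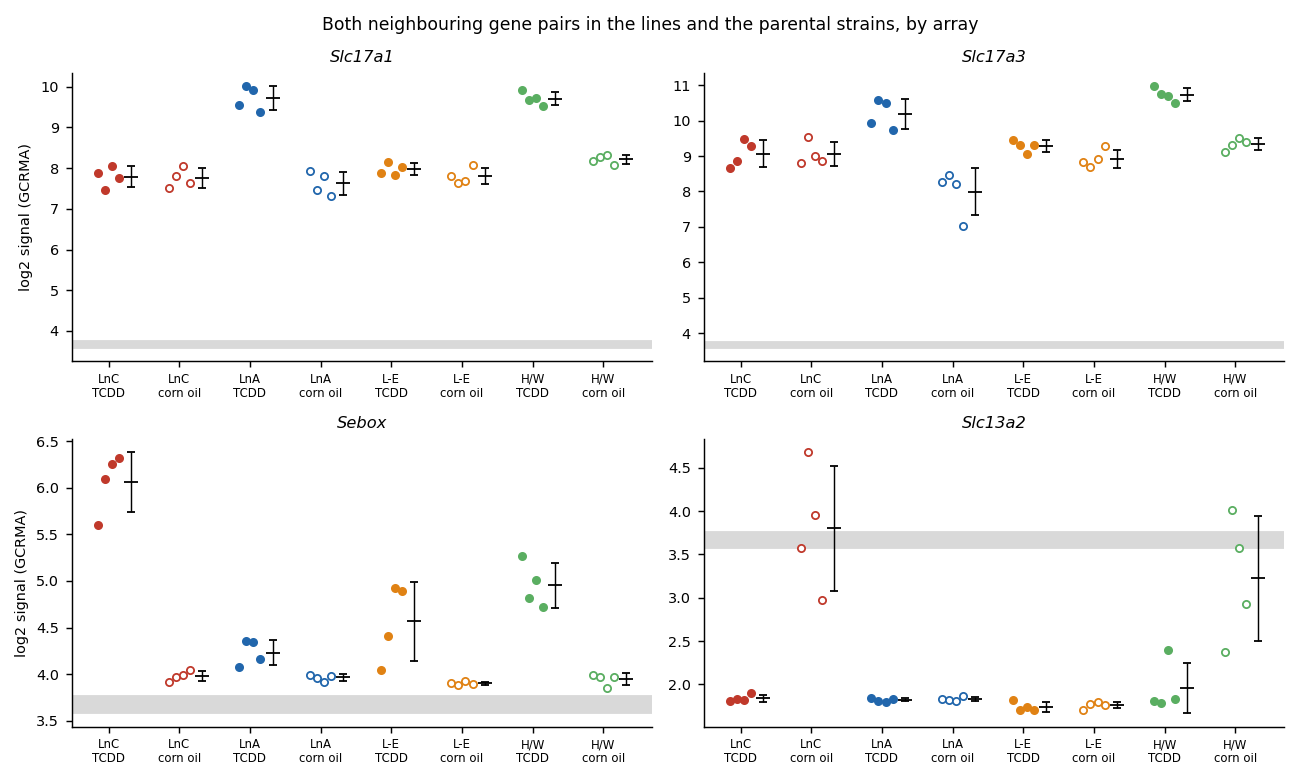
Log2 signal of each array (points; mean and SD beside them) of the neighbours Slc17a1 and Slc17a3 and of Sebox and Slc13a2 in both lines and both parental strains, with filled points for TCDD, open points for corn oil and a grey band over the medians of the 16 line arrays. The Slc17a pair is high in LnA TCDD and H/W TCDD rats alone, and Slc13a2 leaves the floor in LnC and H/W corn oil rats, with 1 H/W TCDD array at 2.39.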

How the data were processed

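Liver mRNA of 40 rats was measured on RAE230A arrays, 1 per rat; 16 arrays of LnC and LnA and, separately, 16 of L-E and H/W at 19 h were used, grouped by their labels. No column was left over (0 unused). The 4 rats of a group are separate animals. The deposited values are log2 signals. The authors used R 2.3.1 with affy 1.10.0 and GCRMA 2.4.1 to make them, per the processing notes of the submitters, whereas the methods describe RMA with a custom probe map, which could not be rerun from signals. GCRMA compresses low signals to a floor, which bounds differences of weak genes. The deposited scanner files gave settings such as the fluidics station, which have no unit of expression, and scan days.

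The array has 15923 probe sets. Leaving out 57 controls, 15866 remained, of which 12783 had 1 symbol, 312 several and 2771 none. Entrez IDs matched 12748 of them in RefSeq with 0 changed symbols. For each of 10411 genes the probe set of highest mean signal in the 16 arrays of the lines was used (1868 genes had several). Group means were fitted with limma 3.58.1 in R 4.3.3, with empirical Bayes moderation and Benjamini-Hochberg adjustment over all genes; called means an adjusted p under 0.01, the study's threshold. No gene was filtered. Array number limits the precision.

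Members, lists, tests and alternatives were chosen with earlier results of these data known. Named genes are the 10 of lowest p in each direction, up to 4 of lowest p in each list, 6 battery genes and Ahr, and called genes with the largest parental interaction of the same sign; not every one is described. Others are said to be picked after their values were seen. The 27 lists (5 of cell markers) cover the AHR battery, AHR complex, acute phase proteins, amino acid catabolism and urea cycle, oxidative phosphorylation, bile acids, cell cycle, cholesterol, circadian clock, coagulation, P450 families, endoplasmic reticulum, fatty acid oxidation and synthesis, glucose metabolism, glucuronidation, glutathione S-transferases, hepatocyte factors, immediate early genes, NRF2 targets, and the study's own lists. No set test was run. The alternatives varied probe set choice, low-signal filter, normalization, moderation, weights, blocks, threshold and arrays left out. The fit was tested on simulated data. Promoters are RefSeq windows of GRCr8; no genome was used.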

Additional observations from a re-analysis of the deposited data

Results flagged for a closer look

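The responses of the 2 lines differed, by the test of the difference itself, for 8 genes. The interaction (LnC minus LnA, log2) was 1.82 for Sebox, 2.07 for Cyfip2, 3.53 for Lox, 2.48 for Vxn, -2.05 for Slc17a1, -0.97 for C20h6orf136, -0.62 for Litaf and -2.98 for Gsta3.

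Single arrays stood apart from the other 3 of their group, by Dixon's ratio, in 11 of the 260 groups looked at (65 genes), where chance gives about 1 in 20. In LnC TCDD rats, replicate 4 was high for Lox (2.57, against 2.12 to 2.19) and for Ahr (3.18, against 3.06 to 3.08), and replicate 2 was low for Pcp4l1 (7.02, against 7.56 to 7.66) and high for Nfe2l2 (11.77, against 11.21 to 11.29). Replicate 1 of that group was high for Gls2 (10.47, against 10.01 to 10.08). In LnC corn oil rats, replicate 3 was high for Lox (2.57, against 2.12 to 2.18) and low for Hamp (12.16, against 13.23 to 13.38). In LnA TCDD rats, replicate 4 was high for Cyfip2 (3.50, against 3.11 to 3.16) and replicate 3 for Gclc (9.53, against 9.24 to 9.26). In LnA corn oil rats, replicate 2 was low for Cyp1a2 (13.76, against 14.18 to 14.22) and replicate 4 high for Aldh3a1 (3.32, against 2.62 to 2.72).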

How the results depend on the processing

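Of the 8 called interactions, all kept their sign under the alternatives run, and Sebox kept its call under each but 1. The blocks and the moderation settings cannot change the size of an interaction, so a kept sign under them shows nothing. Leaving aside single arrays left out, the call was lost under 1 of 13 alternatives for Sebox, 2 for Cyfip2, 3 for Vxn and for Slc17a1, 4 for Lox, 5 for Gsta3, 6 for C20h6orf136 and 8 for Litaf. With the replicate number as a block 1 gene was called (1 positive; 0 negative by limma, with 271 negative at an unadjusted p under 0.05). No source says that the numbers pair rats. Correlations of same-numbered deviations were 0.11 to 0.17 between the LnA groups, where 3 of 4 arrays correlated best with their own number, and ran between -0.26 and 0.44 in the other pairs of groups, with 0 to 2 of 4. With the block in LnA alone, added after seeing the data, 0 interactions were called by limma (0 positive, 0 negative; 549 at an unadjusted p under 0.05), with 13 corn oil and 17 TCDD differences; the LnC and LnA counts were 231 and 118. In the strains that block left 0 by limma (1074 at an unadjusted p under 0.05). Quantile normalization, median centring and a minimum size of 1 each left 2 negative calls, and median centring left 33 corn oil differences. Array weights gave 506 genes in LnC, 232 in LnA and 108 corn oil differences. At an adjusted p under 0.05 there were 14 interactions (7 and 7 by sign), 666 genes in LnC, 404 in LnA, 97 corn oil differences, 213 TCDD differences and 9 parental interactions. With the minimum size, 102, 49, 26 and 43 remained of the LnC, LnA, corn oil and TCDD counts. The fluidics station as a block, chosen after seeing the data, left 82 genes in LnC and 49 in LnA and gave 220 parental interactions, where 1 H/W corn oil array alone separates station from group. The parental count was 8 with median centring and 0 by limma with scan day as a block (1214 at an unadjusted p under 0.05). The cause was not tested.

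With single arrays left out, the interaction count ranged from 1 to 10 (positive 1 to 5, negative 0 to 5). It was 2 without LnC TCDD replicate 1, and 4 without LnC TCDD replicate 3 or 4, LnC corn oil replicate 3 or LnA corn oil replicate 1. The LnC count ranged from 166 (without LnC corn oil replicate 2) to 288, and the LnA count from 91 (without LnA corn oil replicate 3; 101 without replicate 2 of LnA TCDD or of LnA corn oil) to 173. Corn oil differences ranged from 30 (without LnA corn oil replicate 4; 31 to 33 without its replicate 3 or 2, or LnC corn oil replicate 2) to 55, TCDD differences from 62 to 91, and parental interactions from 0 (without L-E corn oil replicate 1 or H/W TCDD replicate 2) to 4. The parental count was 2 without L-E TCDD replicate 4, L-E corn oil replicate 2, H/W TCDD replicate 1 or 4, or H/W corn oil replicate 3.

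The interactions of Nqo1 (-0.06) and Ahr (0.04), both near 0, changed sign with array weights, to 0.00283 and -0.0220. The interaction of Cd14, at -0.65 not near 0, changed to 0.0718 within fluidics station 1, where each line keeps 1 TCDD array. With arrays left out, Nqo1 ranged from -0.44 to 0.20 and Cyp1a2 from -0.14 to 0.0305. Signals under the array medians limit what can be read from Cyfip2, Vxn, Gsta3, Lox, Pcp4l1, Slc13a2, Ahr and, in corn oil rats, Aldh3a1 and Cyp1b1.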

Other observations

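The lists not described above held 0 called interactions by limma, and few members at an unadjusted p under 0.05. NRF2 targets had a median interaction of -0.23 over 12 genes, with none past an unadjusted p of 0.05. The gene of lowest unadjusted p there was Gclc, which makes the first intermediate of glutathione, at -0.51 (adjusted p = 0.981). Glucuronidation and sulfation had 0 of 15 (median -0.03). Glucose metabolism had 1 positive and 1 negative of 34 (median -0.01), Gys2, the liver glycogen synthase, at 0.53 and Igfals, the serum partner of IGF complexes, at -0.59. Endoplasmic reticulum genes had 1 and 1 of 39 (median -0.08), acute phase proteins 1 positive of 29 (median 0.03, Serpina3m at 0.25), cell cycle and DNA damage genes 2 positive of 40 (median 0.02), coagulation genes 1 and 1 of 20 (median -0.02), and immediate early genes 1 positive of 32 (median 0.02). Hepatocyte factors and nuclear receptors had 1 positive and 2 negative of 28 (median -0.04). The study's list for resistant rats, chosen on these samples, had 0 of 3. Markers of bile duct (5 measured), red cell, pancreas and fat (11) and stellate and endothelial cells (15) had 0 members at an unadjusted p under 0.05 by limma, and hepatocyte markers 1 negative of 11.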
